A study of Mus musculus with 36 samples.

Results

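The 10 transcripts described here are products of mouse mitochondrial DNA, followed across all libraries of a fibroblast experiment on the integrated stress response (ISR), the translational response that starts when eIF2α is phosphorylated. They are the ribosomal RNAs (rRNAs) Rnr1 and Rnr2, the heavy-strand messenger RNAs (mRNAs) ND1, ND2, COX1, ATP6, COX3, ND5 and CYTB, and the light-strand mRNA ND6. They were chosen by name, as 10 of the 36856 gene symbols in the deposited count table and 10 of its 15 rRNAs and mRNAs of mitochondrial DNA. The names set no value, but they were chosen when earlier results of these data were known: the mitochondrial DNA mRNAs had been lower with BtdCPU in both genotypes, and lower in PERK-null cells when BtdCPU was added to Tg (thapsigargin). In those 3 comparisons, and in the genotype differences built on them, the mRNAs are therefore given as a description, with no p-value, and in the other comparisons the p-values describe size against spread and support no claim of their own. All 10 transcripts passed the filter on low counts that left 16065 genes.

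The cells were mouse embryonic fibroblasts (labelled MEF), cultured connective tissue cells grown from embryos. They were WT or PERK -/-, here called PERK-null; PERK is the endoplasmic reticulum kinase that phosphorylates the translation factor eIF2α under protein-folding stress. Each genotype received the vehicle DMSO, Tg (thapsigargin, which empties calcium from the endoplasmic reticulum), BtdCPU (an activator of the eIF2α kinase HRI), Halofuginone (a prolyl-tRNA synthetase inhibitor that activates the kinase GCN2), BtdCPU with Tg, or Halofuginone with Tg. With 3 libraries in each of the 12 groups there were 36 bulk RNA-seq libraries. The labels name no dose, time, batch, clone or second line for either genotype, and nothing says that replicates were separate cultures, so p-values measure the spread between these libraries, which may be technical. Treatments of a genotype share its DMSO or Tg libraries. In bulk RNA, a change in only some cells, fewer mitochondria per cell and less RNA per mitochondrion cannot be told apart.

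Mitochondrial DNA is transcribed from both strands as long RNAs that are cut into rRNAs, mRNAs and transfer RNAs (tRNAs). Heavy-strand transcription passes Rnr1 and Rnr2 first, then ND1, ND2, COX1 and, farther on, ATP6, COX3, ND5 and CYTB. ND6 is read from the opposite strand. The transcription terminator MTERF1 binds within TrnL1, the leucine tRNA gene that separates Rnr2 from ND1. The rRNAs build the mitochondrial ribosome, and the mRNAs encode core subunits of the respiratory chain and of ATP synthase.

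The junction between the rRNAs and the first mRNA is shown because rRNAs and mRNAs changed differently with BtdCPU. The sequences are GENCODE M21 transcripts of GRCm38, written 5′ to 3′; the deposited counts were made on another build, so no coordinates are given. In this order on the heavy-strand RNA, Rnr1 ends, TrnV (the valine tRNA) follows, Rnr2 begins and ends, TrnL1 follows and ND1 begins. Capitals mark the first codon of ND1.
Rnr1, last 40 bases: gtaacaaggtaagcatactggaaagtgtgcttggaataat
TrnV, 69 bases: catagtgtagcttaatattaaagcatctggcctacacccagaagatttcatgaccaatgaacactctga
Rnr2, first 40 bases: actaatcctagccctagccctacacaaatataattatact
Rnr2, last 40 bases: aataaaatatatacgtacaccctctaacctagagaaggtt
TrnL1, 75 bases: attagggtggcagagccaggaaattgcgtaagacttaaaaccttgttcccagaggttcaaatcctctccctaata
ND1, first 40 bases: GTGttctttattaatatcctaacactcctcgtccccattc
Binding of MTERF1 was not measured in these data.

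A second set is shown because these genes share bases, so that counts of neighbours can hold the same reads. The end of ND5 and the end of ND6 are opposite strands of the same DNA over 14 bases, in capitals below. ATP8 and ATP6 overlap by 43 bases on the same strand, in capitals from the start codon of ATP6, and ND4L and ND4 overlap by 7.
ND5, last 40 bases: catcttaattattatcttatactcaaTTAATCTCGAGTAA
ND6, last 40 bases: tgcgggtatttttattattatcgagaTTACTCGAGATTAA
ATP8, end with the start of ATP6: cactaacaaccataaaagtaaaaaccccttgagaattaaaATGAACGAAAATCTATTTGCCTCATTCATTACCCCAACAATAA
The libraries were strand-specific, but the use of strand in counting is not given in the sources used here. Counts of ND6 can therefore include RNA read from the opposite strand along its whole length, and each other gene's counts can include its antisense RNA. Nuclear copies of mitochondrial sequence can divide reads in a way that was not tested.

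Library totals ran from 32454257 to 37178107 counts. The counts of Eif2ak3, the PERK gene, were lower in PERK-null than in WT libraries without overlap in 6 of 6 treatments, at 7.66 to 35.4 against 16.4 to 110 CPM (counts scaled to a common library size, with TMM factors). The 8 fibroblast markers had a summed level of 9104 to 20488 CPM. Lum was low among them, with a minimum of 0 and a median of 0.489 CPM. The next lowest median was 39.4 CPM, for Dcn. For 4 epithelial genes the highest summed level was 23.5 CPM, in WT Halofuginone. It was 5.06 for 3 endothelial genes, 3.81 for 3 leukocyte genes and 0.621 for 3 muscle genes. Cd3e was at 0 in every library. The labels name both removal of rRNA and selection of mRNA. Rn5s, the only one of 5 nuclear rRNA symbols in the table, reached at most 0.0281 CPM, and 8 of 9 listed small RNAs without a poly(A) tail summed to 0.366 to 4.94 CPM. WT BtdCPU replicate 2 and WT BtdCPU with Tg replicate 3 stood apart from their groups in the mitochondrial transcripts, as the values below show.

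The 10 transcripts took 3.50% ± 0.477 (SD, n = 3) of the counts in WT DMSO and 3.51% ± 0.429 in PERK-null DMSO. The lowest share was 1.72% ± 0.424, in WT Halofuginone with Tg. The rRNAs alone took 0.0937% ± 0.0127 in WT DMSO, 0.596% ± 0.166 in WT BtdCPU and 1.22% ± 0.113 in PERK-null BtdCPU with Tg, so a small class in control cells became a visible part of the mitochondrial RNA counted. These are shares of the RNA that passed library preparation, and the part played by rRNA removal and mRNA selection in the level of Rnr1 and Rnr2 was not tested.

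Per length, the control order placed every mRNA above the rRNAs. In WT DMSO, CPM per kilobase of the RefSeq transcript was 8578 ± 1284 (SD, n = 3) for COX1, the catalytic subunit of complex IV. CYTB, of complex III, followed at 5046 ± 260, ATP6, of ATP synthase, at 4718 ± 983 and ND1, of complex I, at 4596 ± 270. The ranges of CYTB and ATP6 overlapped, as did those of ATP6 and ND1. Below them came COX3 at 3592, ND2 at 1900, ND5 at 1208 and ND6 at 944 CPM per kilobase. The rRNAs were last, with Rnr2 at 520 ± 54.6 and Rnr1 at 121 ± 20.2, and from COX3 down no neighbours in the order overlapped. In PERK-null BtdCPU with Tg the order was another. Rnr2, at 5777 CPM per kilobase, overlapped COX1 at 6524. Rnr1, at 3038, had a higher mean than every mRNA except COX1, and its range overlapped that of COX3, at 2425.

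**Figure D1:**
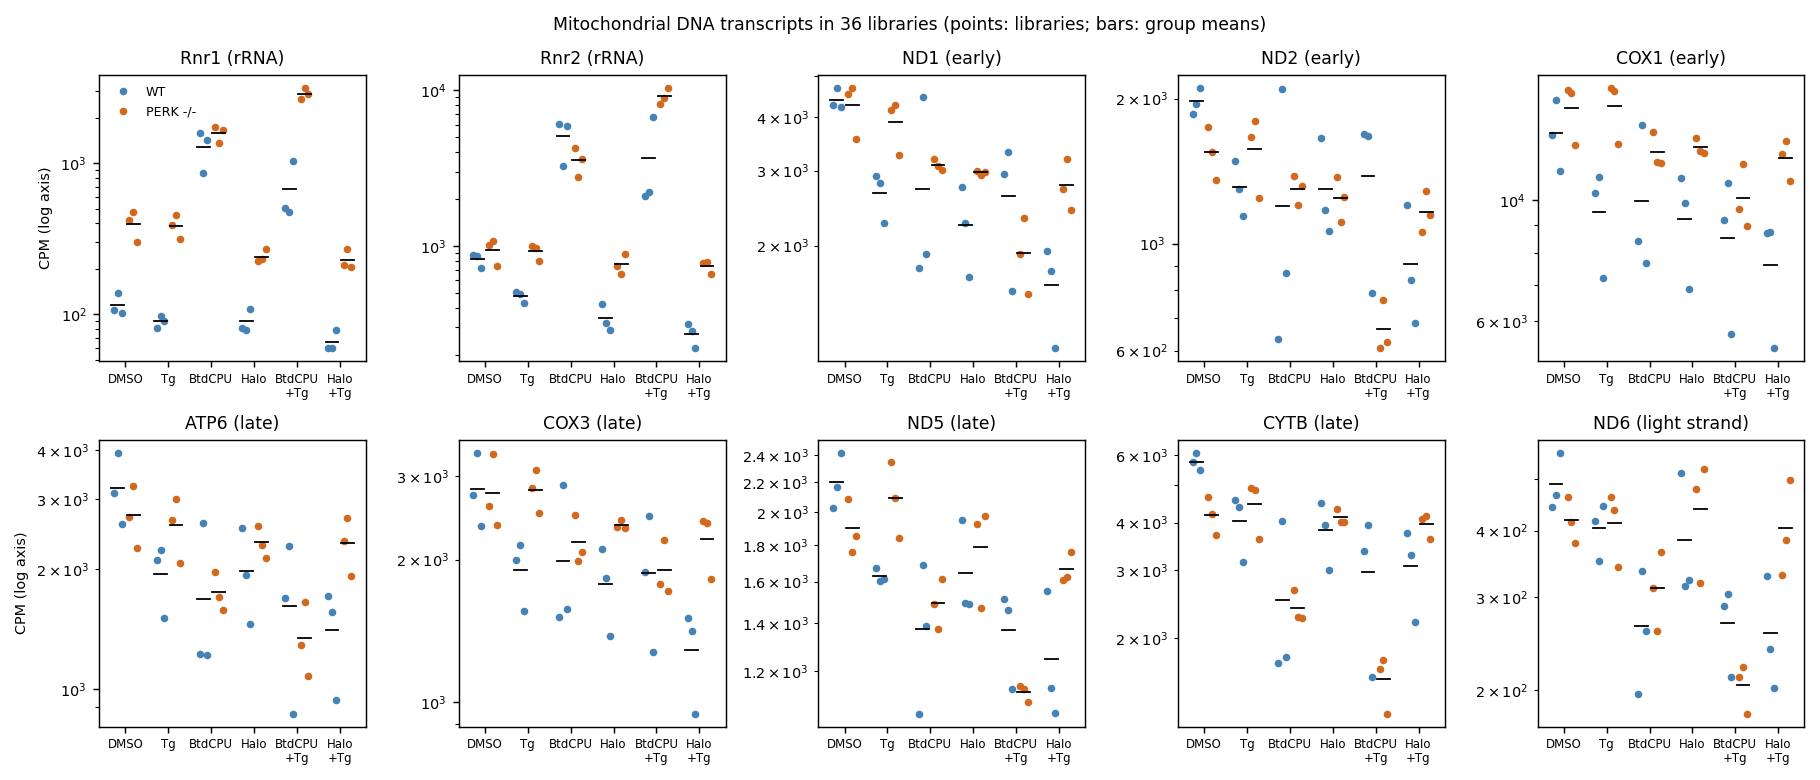
CPM (log axis) of each of the 10 transcripts in 36 libraries; points are libraries, bars are group means, and treatments are on the x axis for WT and PERK-null cells. Rnr1 ran from 102 to 138 CPM in WT DMSO and from 2650 to 3178 in PERK-null BtdCPU with Tg, while CYTB ran from 5490 to 6082 and from 1270 to 1755 in the same groups.

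The rRNAs were higher in every group that received BtdCPU, in both genotypes. Rnr1 encodes the rRNA of the small mitochondrial ribosomal subunit. In WT cells Rnr1 was at 107, 138 and 102 CPM with DMSO and at 1583, 858 and 1425 CPM with BtdCPU. The groups did not overlap, and replicate 2 of BtdCPU was the lowest of its group. The log2 fold change was 3.47 ± 0.246 (SE), an 11.1-fold rise (edgeR quasi-likelihood test, adjusted p 4.69e-12). Rnr2, the rRNA of the large subunit, was at 880, 866 and 724 CPM with DMSO and at 6030, 3258 and 5904 CPM with BtdCPU. It rose 6.15-fold, by 2.62 ± 0.292 on the log2 scale (edgeR adjusted p 6.37e-08), again without overlap. Of all genes tested, 12.9% were higher and 9.31% lower with BtdCPU in WT cells. With library size alone as the scaling, 45.1% of the calls in this comparison were higher, against 58.1% with TMM, and neither rRNA changed its call.

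In PERK-null cells the rRNAs also rose with BtdCPU, from a control level of Rnr1 that was itself higher. Rnr1 was at 423, 474 and 301 CPM with DMSO and at 1736, 1360 and 1661 CPM with BtdCPU, a 3.97-fold rise (log2 1.99 ± 0.232 SE, edgeR adjusted p 7.79e-07). Rnr2 was at 1011, 1076 and 737 CPM with DMSO and at 4239, 2784 and 3609 CPM with BtdCPU, a 3.77-fold rise (log2 1.91 ± 0.285 SE, edgeR adjusted p 4.05e-05). Neither pair of groups overlapped. The background was smaller than in WT cells: 2.55% of genes tested were higher with BtdCPU.

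With Tg present, BtdCPU was again accompanied by high rRNA counts. In WT cells Rnr1 was at 81.6, 97.5 and 90.4 CPM with Tg and at 508, 474 and 1034 CPM with BtdCPU and Tg. Rnr2 was at 505, 493 and 427 CPM with Tg and at 2106, 2217 and 6721 CPM with both. Replicate 3 of the combination was far above the other replicates for each rRNA. Over Tg, Rnr1 rose by 2.90 ± 0.241 (SE) and Rnr2 by 2.95 ± 0.296 on the log2 scale (edgeR adjusted p 4.16e-09 and 1.78e-07), and without that replicate they rose by 2.45 and 2.18. In this comparison 1.29% of genes tested were higher. With library size alone 80.7% of the calls were higher, with DESeq2 45.9% and with TMM 55.9%. Against DMSO, with 28.0% of genes higher and 24.5% lower, Rnr1 rose by 2.53 and Rnr2 by 2.16 (edgeR adjusted p 2.5e-10 and 2.23e-07), or by 2.03 and 1.34 without replicate 3.

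The highest rRNA levels of the experiment were in PERK-null cells that received BtdCPU with Tg. Rnr1 was at 392, 454 and 314 CPM with Tg and at 2650, 3178 and 2874 CPM with both. Rnr2 was at 1005, 963 and 794 CPM with Tg and at 8100, 8911 and 10405 CPM with both. The 3 libraries of the combination lay close together here. Rnr1 rose 7.50-fold over Tg (log2 2.91 ± 0.240 SE, edgeR adjusted p 1.05e-10) and Rnr2 9.93-fold (log2 3.31 ± 0.301 SE, edgeR adjusted p 6.02e-10), where 17.3% of genes were higher. Against DMSO, where 16.8% were higher, Rnr1 rose by 2.86 and Rnr2 by 3.28 on the log2 scale (edgeR adjusted p 6.49e-11 and 4.24e-10).

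Without treatment the rRNAs were not alike between genotypes. Rnr1 was 3.44-fold higher in PERK-null than in WT DMSO (log2 1.78 ± 0.231 SE, edgeR adjusted p 1.09e-07), whereas Rnr2 differed by 0.19 ± 0.275 (edgeR adjusted p 0.591) and its ranges overlapped. Rnr1 was the only member that passed the test between genotypes in DMSO, and 24.6% of all genes were higher in PERK-null DMSO. The labels name no second line of either genotype, so line and genotype cannot be told apart.

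The early heavy-strand mRNAs are ND1 and ND2, subunits of complex I, and COX1. With BtdCPU in WT cells, ND1 was at 1771, 4471 and 1914 CPM against 4284, 4694 and 4217 CPM with DMSO. Replicate 2 reached the control range and the other replicates lay far below it. ND2 showed the same split, at 634, 2095 and 871 CPM against 1862, 1948 and 2108 CPM. COX1 was at 8430, 13706 and 7684 CPM against 13178, 15273 and 11309 CPM. Their log2 fold changes were -0.69 ± 0.254 for ND1, -0.72 ± 0.278 for ND2 and -0.42 ± 0.213 for COX1 (SE). Without replicate 2 they were -1.26, -1.39 and -0.72, and at the other end of the 12 alternative settings they were -0.46, -0.41 and -0.26.

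Each early mRNA was lower in all 3 PERK-null libraries with BtdCPU and Tg than in any with Tg alone. ND1 was at 1912, 2317 and 1545 CPM against 4167, 4285 and 3268 CPM, ND2 at 607, 764 and 625 against 1663, 1801 and 1244 CPM, and COX1 at 9638, 11641 and 8961 against 16066, 15847 and 12649 CPM. The log2 fold changes were -1.02 ± 0.255, -1.24 ± 0.281 and -0.56 ± 0.214 (SE). COX1, the most abundant mRNA, had the smallest of these 3 changes in both genotypes.

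The late heavy-strand mRNAs are ATP6, COX3 of complex IV, ND5 of complex I and CYTB. CYTB lies farthest from the heavy-strand promoter and had the most negative fold change of the 8 mRNAs in each BtdCPU comparison just named. In WT cells CYTB was at 5744, 6082 and 5490 CPM with DMSO and at 1716, 4044 and 1788 CPM with BtdCPU, a log2 fold change of -1.20 ± 0.260 (SE), with alternatives from -1.72, without replicate 2, to -0.99. In PERK-null cells it was at 4933, 4854 and 3624 CPM with Tg and at 1661, 1755 and 1270 CPM with BtdCPU and Tg, a log2 fold change of -1.52 ± 0.262. The groups did not overlap in either case. ATP6 was at 3107, 3929 and 2603 CPM with DMSO and 1222, 2617 and 1216 CPM with BtdCPU in WT cells, so that replicate 2 reached the lowest control. Per kilobase, ND5 ran from 1109 to 1325 CPM with DMSO and from 575 to 924 CPM with BtdCPU, without overlap. COX3 had overlapping groups and a log2 fold change of -0.50 ± 0.220. In PERK-null cells with BtdCPU and Tg over Tg, ATP6 changed by -0.94 ± 0.285, ND5 by -0.90 ± 0.150 and COX3 by -0.56 ± 0.220.

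ND6, a complex I subunit and the only mRNA of the light strand, was at 442, 467 and 560 CPM in WT DMSO and at 197, 336 and 259 CPM in WT BtdCPU. In PERK-null cells it was at 462, 437 and 341 CPM with Tg and at 212, 221 and 181 CPM with BtdCPU and Tg. The log2 fold changes were -0.89 ± 0.211 and -1.01 ± 0.212 (SE), within the range of the heavy-strand mRNAs, and neither pair of groups overlapped.

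In counts, 2 members passed the threshold upwards and 5 downwards with BtdCPU in WT cells, beside 12.9% and 9.31% of all genes. The 5 were CYTB, ATP6, ND6, ND1 and ND5. The lower mRNA levels with BtdCPU were known before, so these calls give the fall no support. The tallies that follow show only how far each call depended on the setting. Of 12 alternatives, ND6 passed in 12, CYTB and ND5 in 11, ATP6 in 8 and ND1 in 6. ND1 did not pass when replicate 1 or 3 of BtdCPU or any DMSO replicate was left out. Without BtdCPU replicate 2 all 8 mRNAs passed. All 8 passed as well with the replicate number as a block, where 34.4% of all genes were called. With only the groups compared in the model 1 mRNA passed, where 6.18% were called. In WT BtdCPU the ISR target Ddit3 was at 70.9 CPM in replicate 2 and at 156 and 133 in the others. The mean log2 level of 6 ISR genes (Atf4, Ddit3, Asns, Chac1, Trib3 and Psat1) above WT DMSO was 2.13 in replicate 2 and 2.8 and 2.68 in the others. A link between ISR level and these transcripts was not tested. With BtdCPU in PERK-null cells the rRNAs passed and no mRNA did, beside 2.55% of all genes higher and 1.04% lower. The heavy-strand mRNAs had log2 fold changes of -0.81 to -0.26 there. Over Tg in PERK-null cells both rRNAs and all 8 mRNAs passed, where 18.3% of genes were lower. From these 3 comparisons nothing is read for the mRNAs, whose levels were known. Against DMSO, PERK-null BtdCPU with Tg had 7 of 8 mRNAs lower beside a background of 14.6%, using the same treated libraries.

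The WT combination of BtdCPU with Tg differed from this. Over Tg, no mRNA passed the test, beside 1.02% of all genes lower, and the heavy-strand mRNAs had log2 fold changes of -0.45 to 0.082. Over DMSO 7 of 8 mRNAs fell beside 24.5% of all genes, ATP6 by 0.99, CYTB by 0.96 and ND6 by 0.87 on the log2 scale (edgeR adjusted p 0.00425, 0.00253 and 0.000903), while ND2 stood at -0.51 and missed the threshold. Leaving out replicate 3 of the treated group left 4 calls (ATP6, ND5, CYTB and ND6). That replicate had 7754 CPM of summed rRNA and 12902 CPM of summed heavy-strand mRNA, against 2614 and 2691 CPM of rRNA and 22286 and 25914 CPM of mRNA in replicates 1 and 2. Ddit3 was at 181 CPM in it and at 264 and 285 CPM in the others. The mean log2 level of the 6 ISR genes above WT DMSO was 2.7 in it and 2.92 and 2.86 in the others.

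**Figure D2:**
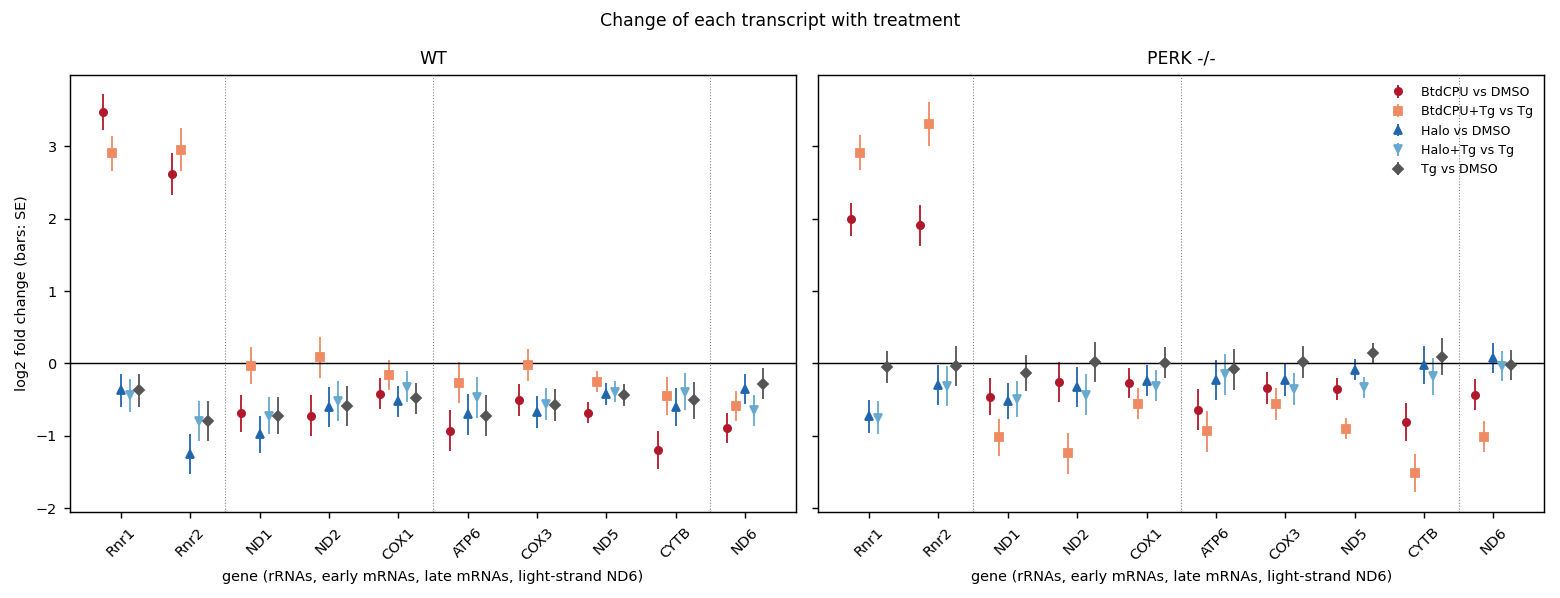
Log2 fold change of each transcript (bars: SE) with BtdCPU, Halofuginone and Tg over DMSO, and with either agent and Tg over Tg, for WT cells on the left and PERK-null cells on the right, in the order rRNAs, early mRNAs, late mRNAs and ND6. With BtdCPU the rRNAs lie between 1.91 and 3.47 and the mRNAs lie below 0 except in the WT comparison over Tg, where they run from -0.59 to 0.082.

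Tg and Halofuginone were not accompanied by a rise of either rRNA. In WT cells Tg lowered 5 members: Rnr2 by 0.79, ND1 by 0.72, ATP6 by 0.72, COX3 by 0.57 and ND5 by 0.44 on the log2 scale (edgeR adjusted p 0.019, 0.0195, 0.0362, 0.0343 and 0.0163). The background was 22.7% of genes lower. COX1 at -0.48 and CYTB at -0.51 missed the threshold; they passed in 4 and 3 of 12 alternative settings, among them the replicate block (edgeR adjusted p 0.000115 and 0.0234). The count was 1 without DMSO replicate 2 or without Tg replicate 3, 2 without DMSO replicate 1 and 3 without Tg replicate 1, so single libraries decided most of these calls.

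Halofuginone in WT cells lowered 7 members beside a background of 33.4%. Rnr2 was at 424, 321 and 290 CPM with Halofuginone against 880, 866 and 724 CPM with DMSO and fell by 1.25 ± 0.280 on the log2 scale (edgeR adjusted p 0.000223). ND1 was at 2750, 2263 and 1689 CPM against 4284, 4694 and 4217 CPM and fell by 0.98 ± 0.255 (edgeR adjusted p 0.00119). Neither overlapped its control. Rnr1, at 81.6, 79.2 and 109 CPM, overlapped the control range and changed by -0.37 ± 0.226 (edgeR adjusted p 0.15). ATP6, COX3, CYTB, COX1 and ND5 fell by 0.42 to 0.70, and ND2 and ND6 did not pass. The count was 3 without DMSO replicate 2 and 4 without Halofuginone replicate 2. With library size alone the median of all genes moved to -0.11 in this comparison. All 10 members then passed downwards, beside 6062 of 16065 genes lower.

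Halofuginone with Tg in WT cells was the comparison in which all 10 members fell against DMSO, beside a background of 31.4%, and all 10 also fell when any 1 library was left out. Rnr2 was at 314, 283 and 220 CPM and fell 3.02-fold (log2 -1.59 ± 0.282 SE, edgeR adjusted p 1.12e-05). ND1 fell 2.72-fold (log2 -1.45 ± 0.258 SE, edgeR adjusted p 1.23e-05). The smallest changes were those of COX1, at -0.80, and Rnr1, at -0.81. Over Tg, 5 members fell (Rnr2, ND1, ND6, COX3 and ND5, by 0.39 to 0.80) beside a background of 22.5%. The replicate block added COX1 and ATP6 (log2 -0.33 and -0.49, edgeR adjusted p 0.00654 and 0.0251), whereas the count was 0 without replicate 3 of the combination and 1 without Tg replicate 1.

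In PERK-null cells the same agents gave few calls. Tg gave 0 of 10 by edgeR, 0 at an unadjusted p under 0.05 and 0 by DESeq2, beside 27.9% of genes changed in either direction, and its heavy-strand mRNAs had log2 fold changes of -0.13 to 0.14. With Halofuginone, Rnr1 was at 224, 232 and 269 CPM against 423, 474 and 301 CPM and fell by 0.73 ± 0.225 on the log2 scale (edgeR adjusted p 0.0095), which was lost without DMSO replicate 2; 21.0% of genes were lower. Halofuginone with Tg lowered Rnr1 by 0.80 and ND1 by 0.62 against DMSO (edgeR adjusted p 0.00428 and 0.0463), beside 22.2%. The call of ND1 was lost, and the count became 1, when DMSO replicate 1 or 2 or combination replicate 1 or 3 was left out. Over Tg the combination lowered Rnr1 by 0.75 (edgeR adjusted p 0.00565), beside 27.5%; the count was 0 without Tg replicate 2 and 2 without Tg replicate 3.

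The balance between classes was measured within each library, where scaling between libraries cancels. The rRNA ratio is the mean log2 CPM of the rRNAs minus that of the 7 heavy-strand mRNAs. It was -3.65 ± 0.0706 (SD, n = 3) in WT DMSO and 0.18 ± 1.09 in WT BtdCPU, a 14.2-fold shift without overlap, although BtdCPU libraries ran from -1.07 to 0.92. In PERK-null cells it was -2.51 ± 0.156 with DMSO and -0.11 ± 0.168 with BtdCPU, a 5.28-fold shift. The highest value was 1.53 ± 0.242, in PERK-null BtdCPU with Tg, 16.9-fold above Tg alone. In WT BtdCPU with Tg it was -0.66 ± 1.32, 7.91-fold above WT Tg, and its 3 libraries ran from -1.53 to 0.85. Differences with Tg or Halofuginone, alone or together, ran from -0.27 to 0.006. Ranges did not overlap for Halofuginone with Tg in PERK-null cells, at -0.25 from DMSO and -0.21 from Tg. From summed counts, WT Halofuginone differed from DMSO by -0.48 and WT Halofuginone with Tg by -0.47. The DMSO libraries of PERK-null cells lay 1.14 above those of WT cells, or 0.56 above from summed counts. Of the rRNAs, only Rnr1 had passed the test between these groups.

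**Figure D3:**
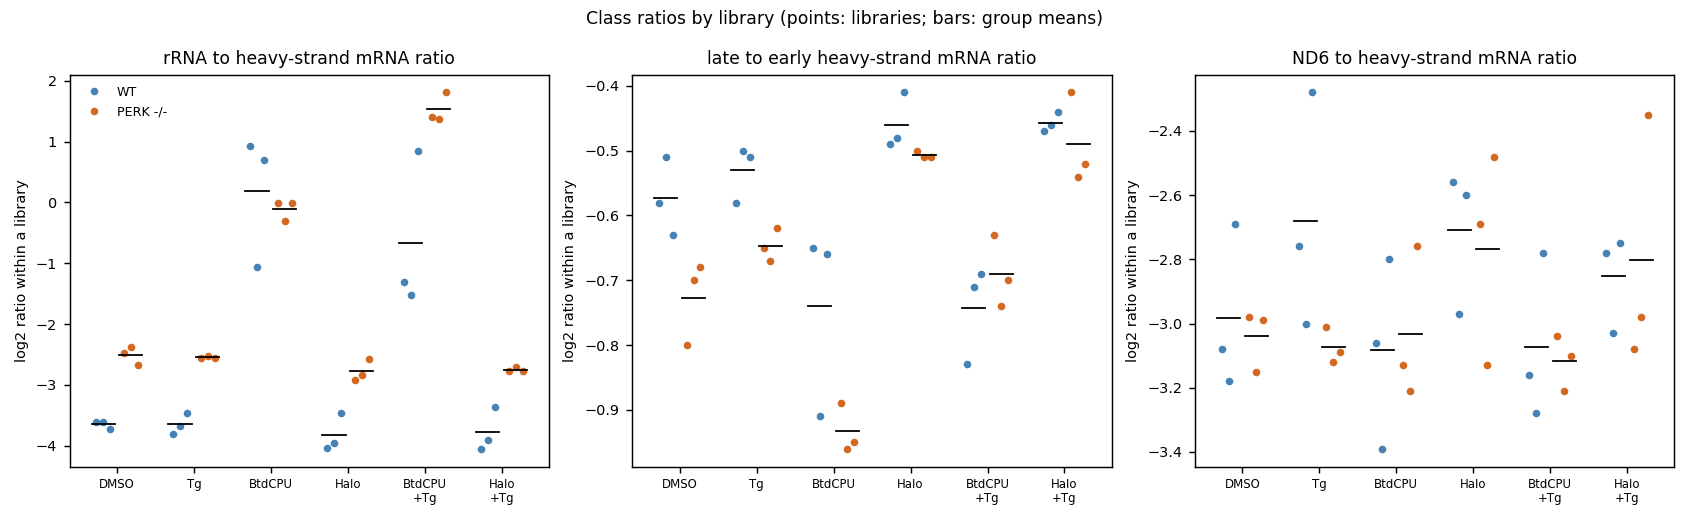
Log2 ratios within a library, for rRNAs to heavy-strand mRNAs, late to early heavy-strand mRNAs, and ND6 to heavy-strand mRNAs; points are libraries and bars are group means for the 6 treatments of each genotype. The first ratio spans -4.05 to 1.81 over the 36 libraries, while the second stays between -0.96 and -0.41.

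Differences by position along the heavy strand were smaller than those between rRNAs and mRNAs. The late to early ratio is the mean log2 CPM of ATP6, COX3, ND5 and CYTB minus that of ND1, ND2 and COX1. With BtdCPU it moved by -0.17 in WT and by -0.21 in PERK-null cells, and with Halofuginone by 0.11 and 0.22, each without overlap with DMSO. For BtdCPU with Tg over Tg the difference was -0.21 in WT cells, without overlap, and -0.042 in PERK-null cells, with overlap. In the last case it was -0.33 from summed counts, and log2 CYTB to COX1 differed by -0.96 without overlap. When the ratio was formed from summed counts, the WT difference of Halofuginone with Tg from DMSO turned from 0.12 to -0.039. Pairs of genes varied more than the class means, as CYTB and COX1 show; this pair, and the pair Rnr2 and Rnr1, were chosen after the values had been seen. Log2 CYTB to COX1 was -1.19 ± 0.143 (SD, n = 3) in WT DMSO and -2.05 ± 0.271 in WT BtdCPU, and -1.81 ± 0.0749 in PERK-null DMSO and -2.36 ± 0.0308 in PERK-null BtdCPU. Log2 Rnr2 to Rnr1 was 2.83 ± 0.193 in WT DMSO, 1.97 ± 0.0714 in WT BtdCPU and 1.24 ± 0.0548 in PERK-null DMSO.

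ND6 relative to the heavy-strand mRNAs was -2.99 ± 0.258 (log2, SD, n = 3) in WT DMSO and -3.08 ± 0.295 in WT BtdCPU, and its ranges overlapped in all 15 comparisons between groups. The differences ran from -0.39 to 0.30, and the pooled SD from 0.0748 to 0.316. Where replicate numbers paired the libraries, differences within a number can be given: for Tg over DMSO in WT cells they were 0.32, 0.18 and 0.41, and for BtdCPU with Tg over Tg in WT cells -0.40, -0.28 and -0.50. Each of these sets had 1 sign in all 3 pairs, and both use the WT Tg libraries. In WT cells 1 sign was also found for Halofuginone over DMSO (0.52, 0.21 and 0.09) and for Halofuginone with Tg over Tg (-0.02, -0.03 and -0.47). BtdCPU with Tg over Tg in PERK-null cells had 1 sign too (-0.03, -0.09 and -0.01). For BtdCPU over DMSO in WT cells the differences were 0.02, -0.21 and -0.11. Signs were also mixed for Halofuginone with Tg over DMSO in WT cells and for Tg over DMSO in PERK-null cells. With 3 pairs no exact test can pass the threshold. Replicate 3 had the lowest summed heavy-strand mRNA in 9 of 12 groups and the highest ND6 ratio in 8 of 12; what distinguishes the replicate numbers is not given in the sources used here.

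**Figure D4:**
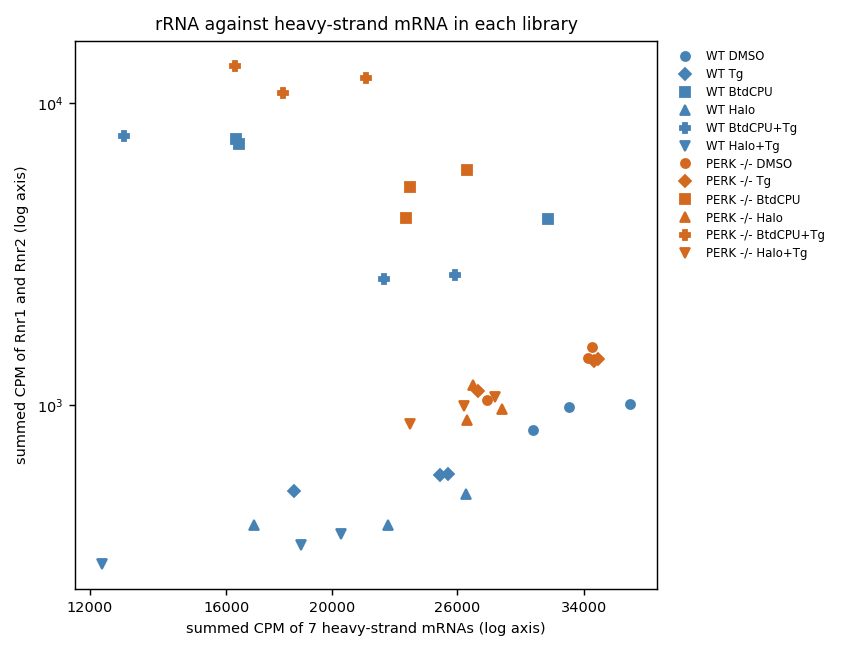
Summed CPM of Rnr1 and Rnr2 against summed CPM of the 7 heavy-strand mRNAs, both on log axes, with each point a library, colour the genotype and symbol the treatment. Libraries with BtdCPU lie high on the rRNA axis, and within WT BtdCPU the library with the most mRNA, 31499 CPM, has the least rRNA, 4117 CPM.

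Whether genotypes responded differently was tested as an interaction, the response of PERK-null cells minus that of WT cells. For BtdCPU over DMSO, Rnr1 differed by -1.49 ± 0.318 (SE, edgeR adjusted p 0.0298) where 0.162% of genes were lower, and it passed in 7 of 18 alternative settings, with values of -1.71 to -1.31. It no longer passed when any of 9 libraries was left out: DMSO replicate 1 or 3 or BtdCPU replicate 1 or 3 of WT cells, and DMSO replicate 1 or 2 or any BtdCPU replicate of PERK-null cells. Rnr2 differed by -0.71 ± 0.390 (edgeR adjusted p 0.55). For BtdCPU with Tg over Tg, ND1 differed by -0.99, ND2 by -1.32, ND5 by -0.65 and CYTB by -1.07. These 4 passed where 10.1% of genes were lower, but they rest on the PERK-null libraries whose mRNA levels were known, so no p-value is given and nothing is read from the count. With library size alone 41.4% of all calls in this interaction were higher, against 51.6% with TMM. Without WT combination replicate 3 Rnr2 differed by 1.17 and passed, and the count was 0 without WT combination replicate 1 or 2 or without PERK-null Tg replicate 2. It was 1 without WT Tg replicate 2, PERK-null Tg replicate 1 or PERK-null combination replicate 1 or 3, and 2 without WT Tg replicate 3. For Tg over DMSO, ND5 differed by 0.58 ± 0.210 (edgeR adjusted p 0.0294) beside 19.5% higher, with 4 members called under the replicate block, and ND5 did not pass when any of 6 libraries was left out (DMSO replicate 3 or Tg replicate 2 or 3 of WT cells, DMSO replicate 2 or 3 or Tg replicate 1 of PERK-null cells). For Halofuginone over DMSO and Halofuginone with Tg over Tg 0 of 10 passed by edgeR and 0 by DESeq2, with 1 of 10 at an unadjusted p under 0.05 in each, beside 35.0% and 32.7% of genes in either direction. The counts were 2 and 1 without replicate 1 of WT Halofuginone and of WT Halofuginone with Tg, and the first was 1 without PERK-null Halofuginone replicate 2.

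The 5 mRNAs of mitochondrial DNA outside the set are COX2, ATP8, ND3, ND4L and ND4. With BtdCPU in WT cells 4 of 5 were lower, beside 9.31% of all genes. In PERK-null BtdCPU with Tg, 4 of 5 were lower over Tg and 5 of 5 over DMSO, beside 18.3% and 14.6%. The fall of mitochondrial DNA mRNAs in these libraries was known before, so nothing is read from the counts with BtdCPU. Halofuginone with Tg lowered 5 of 5 in WT cells against DMSO, beside 31.4% of all genes. None was higher in any comparison.

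Nuclear genes that transcribe, process, stabilise or replicate mitochondrial DNA or its RNA were read from a list of 42 tested genes. With BtdCPU in WT cells 9 rose and 2 fell, where 12.9% of all genes were higher and 9.31% lower, with a median log2 fold change of 0.050 against -0.0062 over all genes. None of the 11 transcription genes passed. Polrmt, the mitochondrial RNA polymerase, was at 71.7 CPM with DMSO and 72.1 CPM with BtdCPU, and Tfam, its promoter factor, was at 42.6 and 47.6 CPM (edgeR adjusted p 0.983 and 0.489). Lrpprc, which binds mitochondrial mRNAs and keeps them stable, rose by 0.32 ± 0.0864 (SE, edgeR adjusted p 0.007). Its call was lost with no filter on low counts, with only the groups compared, and without DMSO replicate 2 or BtdCPU replicate 3. The largest changes were those of the nuclease and helicase Dna2, which fell by 1.36, and the matrix protease Lonp1, which rose by 0.83 on the log2 scale (edgeR adjusted p 0.000173 and 3.44e-06). With BtdCPU in PERK-null cells 1 of 42 rose and none fell, where 2.55% of all genes were higher and 1.04% lower.

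Over Tg, BtdCPU raised 17 and lowered 0 of the 42 in PERK-null cells (median 0.22, all genes -0.04), where 17.3% of all genes were higher and 18.3% lower. Tg alone had raised 2 and lowered 16 of the 42 there against DMSO (median -0.16). Against DMSO, the same libraries with BtdCPU and Tg had 8 higher and 4 lower (median 0.089), beside 16.8% and 14.6% of all genes. Over Tg in WT cells BtdCPU raised 0 and lowered 1, where 1.29% were higher and 1.02% lower. The largest rises in PERK-null cells were those of Trmt10c, a subunit of mitochondrial ribonuclease P, at 20.8 and 48.3 CPM, and of Fastkd1, an RNA-binding protein of mitochondria, at 13.9 and 31.5 CPM with Tg and with both agents (log2 1.21 and 1.19, edgeR adjusted p 2.26e-07 and 5.7e-06). Lrpprc rose by 0.57 there (edgeR adjusted p 4.97e-06), while Polrmt was at 0.10 and Tfam at 0.17 (edgeR adjusted p 0.537 and 0.407).

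Halofuginone in WT cells raised 19 and lowered 10 of the 42 (median 0.11, all genes 0.0041), beside 34.7% of all genes higher and 33.4% lower. Polrmt fell from 71.7 to 34.6 CPM (log2 -1.05 ± 0.117 SE, edgeR adjusted p 2.58e-09), Dna2 from 26.7 to 1.06 CPM and Mterf2, a member of the MTERF family, from 9.24 to 1.68 CPM, while Tfam and Lrpprc did not pass. Tg in WT cells raised 20 and lowered 6 (median 0.19, all genes 0.015), beside 24.9% of all genes higher and 22.7% lower. Lonp1 rose by 1.61 and Tfam by 0.47, and Dna2 fell by 2.88 and Polrmt by 0.32 on the log2 scale (edgeR adjusted p 1.26e-12, 0.0105, 2.77e-10 and 0.0219). The call of Tfam was lost without Tg replicate 1 or 2, and that of Polrmt without DMSO replicate 1 or Tg replicate 3. In PERK-null cells Tg raised 2 and lowered 16, beside 15.2% of all genes higher and 12.7% lower, and Halofuginone raised 16 and lowered 7, beside 21.2% and 21.0%.

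Among 10543 genes outside mitochondrial DNA, likeness was measured as Pearson's r of mean log2 CPM over the 12 groups, which share libraries and scaling; it is a description. The genes most like the rRNAs were Vac14 (r 0.908), Dhtkd1 (r 0.901) and Npc1 (r 0.900), and Npc1 ran from 41.1 CPM in WT DMSO to 128 CPM in PERK-null BtdCPU with Tg. Those most like the heavy-strand mRNAs were Eif2ak2 (r 0.951), Hmgn3 (r 0.942) and N6amt2 (r 0.883). For ND6 they were Eif2ak2 (r 0.918), Dgcr8 (r 0.879) and Sf3b6 (r 0.872).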

How the data were processed

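The authors deposited a table of estimated counts per gene for the 36 libraries, not scaled between libraries, in which 0.025 takes the place of 0 (50.6% of values); of the rest, 2.69% have a fractional part. Per the submitters' processing notes the build was GRCm39 and DESeq was used; aligner, counting tool, annotation and use of strand are not given in the sources used here. Per the labels' protocols, RNA came from a Quick-RNA kit and libraries were strand-specific (DNBSEQ), with ribosomal depletion and mRNA selection both named.

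From these estimated counts, 27 entries named by a date were left out (0.206% to 0.278% of a library), the 39 symbols on more than 1 entry were summed, and counts were rounded. The test was the edgeR (4.0.16, R 4.3.3) quasi-likelihood test (filterByExpr by group, TMM, robust quasi-likelihood fit of 12 group means to all 36 libraries, common dispersion 0.0199, 24 residual degrees of freedom), with Benjamini-Hochberg adjustment over 16065 genes in each of 20 contrasts and a threshold of 0.05. The code was tested on simulated data. CPM uses TMM-scaled library sizes. Libraries of a group differed by a chi-square of at least 9.06 per degree of freedom, so none repeated another.

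Groups came from the labelled genotype and treatment, and replicate numbers from the titles. Members, gene lists and tests were chosen with earlier results of these data known. All 10 members are named; of the nuclear list, Polrmt, Tfam, Lrpprc and the 2 largest changes past the threshold with average log2 CPM of at least 2 in 4 comparisons; for likeness, the 3 highest correlations. Names, gene order, strand and lengths came from GENCODE M21 and RefSeq of GRCm38, matched by symbol (10 of 10 members). The marker lists covered fibroblast, epithelial, leukocyte, endothelial and muscle genes, nuclear rRNAs and RNAs without a poly(A) tail; the 69 replication histone symbols summed to 133 to 2453 CPM. Replicate numbers were taken to pair libraries where the deviations from group means of same-numbered libraries correlated above 0.1 in every pair; this held in 8 of 15 comparisons between groups (r from 0.12 to 0.58 there). Alternatives were scaling by library size, scaling without mitochondrial genes, DESeq2 1.42.0, no filter on low counts, only the groups compared, a replicate block and leaving out each library.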

Additional observations from a re-analysis of the deposited data

Results flagged for a closer look

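For 6 values the response of PERK-null cells minus that of WT cells, on the log2 scale, passed the interaction test. For Tg over DMSO, ND5 differed by 0.58 (edgeR adjusted p 0.0294). It was 1 of 10 members, beside 19.5% of all genes higher. Leaving out single libraries gave 0 to 1 members called in that interaction. For BtdCPU over DMSO, Rnr1 differed by -1.49 (edgeR adjusted p 0.0298), beside 0.162% of all genes lower, with 0 to 2 members called when single libraries were left out. For BtdCPU with Tg over Tg, ND1 differed by -0.99, ND2 by -1.32, ND5 by -0.65 and CYTB by -1.07. These 4 passed where 10.1% of all genes were lower. They are a description with no p-value, since the lower mRNA levels of the PERK-null libraries were known before. The count ran from 0 to 5 when single libraries were left out.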

How the results depend on the processing

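The rRNA rises with BtdCPU passed the threshold in all 12 alternatives of each of the 6 comparisons, with both rRNAs, and no called member changed its sign in any alternative. Scaling by library size alone moved the median of all genes by more than 0.1 only for WT Halofuginone. Whether a member passed depended on the setting in many of the other comparisons, and the cause was not tested.

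With no filter on low counts, the number of members called was 10 for WT Tg, 4 for WT BtdCPU with Tg over Tg, 10 for WT Halofuginone with Tg over Tg, 6 for PERK-null BtdCPU, 4 for PERK-null Halofuginone, 6 for PERK-null Halofuginone with Tg over DMSO and 6 over Tg, 3 between genotypes in DMSO, and 8, 2, 6 and 2 for the interactions with Tg, BtdCPU, Halofuginone and Halofuginone with Tg over Tg. In the same order, the shares of all genes called in either direction were 26.3%, 2.9%, 24.9%, 2.85%, 23.0%, 24.8%, 29.2% and 27.4%. For the interactions they were 21.0%, 1.12%, 20.0% and 17.8%. With only the groups compared, the number of members called was 3 for WT BtdCPU, 7 for PERK-null BtdCPU, 3 for PERK-null Halofuginone, 5 for PERK-null Halofuginone with Tg over DMSO and 7 over Tg, 3 between genotypes, and 5, 0, 2 and 1 for the same interactions. All-gene shares in either direction were then 6.18%, 9.28%, 52.6%, 56.8%, 65.0% and 53.6%, and 41.8%, 0.0138%, 33.8% and 32.8% for these interactions. With the replicate block, the number of members called was 4 for PERK-null BtdCPU, 2 for PERK-null Halofuginone, 4 for PERK-null Halofuginone with Tg over Tg and 4 for the interaction with Tg. Shares of all genes called with the block were 9.82%, 51.4%, 60.0% and 47.7%. In the first 3 of these comparisons the replicate numbers did not pair the libraries. The block ended no call of a member and moved no other count by over 1.5 times. In the 7 comparisons without pairing, 2 of 3 treated (or PERK-null DMSO) libraries (3 of 3 for PERK-null Halofuginone) correlated best with their own number. Scaling by library size gave 1 for PERK-null Halofuginone with Tg over DMSO, 0 for the interaction with BtdCPU and 1 for that with Halofuginone. These stood beside 44.8%, 0.168% and 36.3% of all genes.

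Leaving out each library in turn gave 1 to 6 members for WT Tg and 3 to 9 for WT Halofuginone. For WT Halofuginone with Tg over Tg it gave 0 to 6. In PERK-null cells it gave 0 to 1 for Halofuginone, 1 to 2 for Halofuginone with Tg over DMSO and 0 to 2 over Tg. For the interactions it gave 0 to 1 with Tg, 0 to 2 with BtdCPU and 0 to 2 with Halofuginone. The interactions over Tg gave 0 to 5 for BtdCPU with Tg and 0 to 1 for Halofuginone with Tg. The share of all genes called in these fits is not given here. A change in the members called therefore cannot be told from a change over all genes.

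As a log2 ratio of summed counts, rRNA to heavy-strand mRNA differed by -0.17 for WT Tg, -0.48 for WT Halofuginone, -0.47 for WT Halofuginone with Tg, -0.12 for PERK-null Halofuginone with Tg over Tg (-0.26 with all 12 heavy-strand mRNAs) and 0.56 between genotypes. Late to early mRNA then differed by -0.0093 for WT Tg, -0.40 for WT BtdCPU, 0.021 for WT Halofuginone, -0.039 for WT Halofuginone with Tg over DMSO and -0.029 over Tg (both reversed), -0.27 for PERK-null BtdCPU, 0.17 for PERK-null Halofuginone, -0.27 and -0.33 for PERK-null BtdCPU with Tg over DMSO and over Tg, and -0.34 between genotypes. ND6 to heavy-strand mRNA differed by -0.24 and -0.21 for PERK-null BtdCPU with Tg over DMSO and over Tg. With ND5 and CYTB against ND1 and ND2, late to early was 0.18 for WT Tg, 0.29 for WT Halofuginone, 0.43 for WT Halofuginone with Tg over DMSO and 0.24 over Tg, -0.35 for WT BtdCPU with Tg over Tg, 0.17 for PERK-null Tg, 0.36 for PERK-null Halofuginone and 0.38 for PERK-null Halofuginone with Tg over DMSO. The share of counts with all 15 rRNAs and mRNAs was 4.21% in WT DMSO, 2.85% in WT Tg, and 4.14%, 4.15%, 3.54%, 3.49%, 3.44% and 3.38% in PERK-null DMSO, Tg, BtdCPU, Halofuginone, BtdCPU with Tg and Halofuginone with Tg.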

Other observations

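The tRNAs of mitochondrial DNA lie between the rRNAs and mRNAs on the same long RNAs, and 18 of 22 were counted often enough to test. None was higher in any treatment comparison within a genotype. With BtdCPU 8 of 18 were lower in WT cells, beside 9.31% of all genes, and 4 of 18 in PERK-null cells, beside 1.04%. With BtdCPU and Tg over Tg 3 of 18 were lower in WT cells, beside 1.02%, and 7 of 18 in PERK-null cells, beside 18.3%. Of the 8 in WT BtdCPU, 4 were of 10 read from the heavy-strand mRNAs' strand (median log2 fold change -1.08) and 4 of 8 from the strand of ND6 (median -1.01). Halofuginone with Tg lowered 16 of 18 in WT cells against DMSO, beside 31.4% of all genes, and 9 of 18 in PERK-null cells, beside 22.2%.

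TrnL1, the tRNA between Rnr2 and ND1, was counted 1725, 1772 and 1432 times in WT DMSO and 386, 988 and 412 times in WT BtdCPU, a log2 fold change of -1.43 (edgeR adjusted p 0.000314). In PERK-null cells it was counted 1621, 1186 and 1047 times with DMSO and 686, 615 and 582 times with BtdCPU (log2 -1.06, edgeR adjusted p 0.0213). TrnV, between Rnr1 and Rnr2, had few counts and did not pass with BtdCPU. It was counted 2 to 7 times in WT DMSO and 3 to 13 times in WT BtdCPU (log2 0.69, edgeR adjusted p 0.538). PERK-null libraries had 7 to 13 counts of TrnV with DMSO and 3 to 7 with BtdCPU (log2 -0.87, edgeR adjusted p 0.626). Between genotypes in DMSO, 2 of 18 tRNAs were higher in PERK-null cells and 0 lower, beside 24.6% of all genes higher. They were TrnC and TrnN, at 14.9 ± 3.36 against 9.64 ± 1.16 CPM and at 26.6 ± 3.65 against 15.4 ± 1.81 CPM (SD, n = 3). Mature tRNAs are short and carry many modified bases, and standard libraries capture them poorly.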
